A study of Mus musculus with 35 samples.

Results

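The genes described here are 10 members of the TNF superfamily, its ligands Tnfsf10 and Tnfsf9 and its receptors Tnfrsf10b, Fas, Tnfrsf1a, Tnfrsf21, Ngfr, Tnfrsf1b, Tnfrsf12a and Tnfrsf11b. They were found by symbol, each on 1 row, among 55487 genes in 4 deposited tables with 35 RNA-Seq libraries. The set was selected on measured values, since Tnfsf10 was chosen for its low level after IAMP knockdown in the IL-17 libraries. Its values in any comparison with those libraries are therefore given as a description, with no test. IAMP is a micropeptide encoded in mice by 4930523C07Rik. Adult mouse cardiac fibroblasts (CFs) received a control siRNA, called Scrambled here, or 1 of 2 siRNAs to IAMP, called si1259 and si1055 after the deposited columns, which the labels of the TGF-β libraries pair with IAMP siRNAs 1 and 2. The cells were untreated, given IL-17 or given TGF-β, with 3 libraries in each of 9 groups, and the labels state 24 hours of siRNA followed by 24 hours of IL-17. Hearts of C57BL/6 mice came from 4 heterozygous (HET) controls and 4 IAMP knockouts (KO) without injury, and the knockout line carries a frameshift made by giving Cas9 to fertilized eggs. The HET controls carry 1 altered allele themselves.

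Most TNF ligands bind their receptors as trimers. Receptors with a death domain, namely Fas, Tnfrsf1a (TNFR1), Tnfrsf10b (the mouse TRAIL receptor), Tnfrsf21 (DR6) and Ngfr (the p75 neurotrophin receptor), can recruit adaptors that activate caspases, while Tnfrsf1b (TNFR2) and Tnfrsf12a (Fn14, the TWEAK receptor) lack that domain and signal mainly through TRAF proteins to NF-κB. Tnfrsf11b (osteoprotegerin) is a secreted decoy that binds the ligands RANKL and TRAIL, Tnfsf10 encodes TRAIL, and Tnfsf9 encodes the ligand of 4-1BB.

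The promoter windows of 3 members are shown because the comparisons below turn on them. They are 300-base windows around the annotated start, from RefSeq (GRCm38.p6), read 5′ to 3′ on the gene's strand. Capitals mark every match to the motifs searched on both strands, which were AP-1 (TGANTCA), an interferon response core (GAAANNGAA), a STAT site (TTCNNNGAA), the hypoxia response core (ACGTG), κB (GGANTTTCC or GGGNTTTCC) and TATAAA.
Tnfsf10, chr3:27316827-27317126, plus strand: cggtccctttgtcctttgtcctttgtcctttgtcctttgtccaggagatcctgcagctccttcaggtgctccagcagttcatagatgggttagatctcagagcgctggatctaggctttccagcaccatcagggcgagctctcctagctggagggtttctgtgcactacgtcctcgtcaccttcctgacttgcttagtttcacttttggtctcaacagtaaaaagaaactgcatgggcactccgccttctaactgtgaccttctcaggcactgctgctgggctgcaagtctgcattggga
Tnfrsf1b, chr4:145246821-145247120, minus strand: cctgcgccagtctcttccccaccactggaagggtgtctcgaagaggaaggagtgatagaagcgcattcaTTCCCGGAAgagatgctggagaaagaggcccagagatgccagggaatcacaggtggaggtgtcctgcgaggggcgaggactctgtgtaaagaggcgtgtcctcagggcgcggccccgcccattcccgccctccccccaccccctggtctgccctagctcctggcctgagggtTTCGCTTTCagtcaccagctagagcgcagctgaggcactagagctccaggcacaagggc
Fas, chr19:34290409-34290708, plus strand: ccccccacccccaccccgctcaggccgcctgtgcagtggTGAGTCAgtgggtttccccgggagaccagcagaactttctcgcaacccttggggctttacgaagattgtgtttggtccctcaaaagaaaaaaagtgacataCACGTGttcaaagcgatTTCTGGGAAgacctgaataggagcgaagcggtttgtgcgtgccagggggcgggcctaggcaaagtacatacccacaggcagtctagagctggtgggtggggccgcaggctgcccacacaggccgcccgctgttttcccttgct
A window was found for 7 of the 10 members, and Tnfrsf10b, Tnfrsf11b and Tnfsf9 had none. The Tnfsf10 window held no match. Fas held an AP-1 match, as did 7.81% of all 32851 promoter windows, and a hypoxia response core, as did 19.6%. The 2 overlapping hypoxia matches in Fas are 1 palindrome read on both strands. The STAT motif was in Tnfrsf1b, Tnfrsf1a and Fas and in 8.3% of all windows, and the interferon core was in Tnfrsf1b and in 8.56%. The hypoxia core was also in Ngfr and Tnfrsf21. No member held κB (2.89% of all windows) or TATAAA (13.6%). A match is a run of letters and not a measured site.

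A fibroblast library held 104139670 to 119232309 estimated counts and a heart 23497027 to 23857313 counts. A read pair was worth about 6 estimated counts in fibroblasts, so the 3-pair floor is 18 estimated counts. Levels are CPM, counts scaled to a common library total, after TMM scaling over the 27 fibroblast libraries. The IAMP transcript averaged 23.6 CPM in untreated Scrambled, 3.01 CPM with si1259 and 1.83 CPM with si1055. With IL-17 it averaged 18.9, 2.61 and 1.73 CPM in the same order, and with TGF-β 20.6, 4.34 and 3.26 CPM. More of it thus remained after knockdown with TGF-β than in untreated CFs, with each siRNA. In hearts it was 17.0 ± 1.27 CPM in HET and 16.0 ± 0.938 CPM in KO (SD, n = 4 each), and a frameshift need not lower the transcript, so this does not check the genotype. All 6 fibroblast markers were above 1 CPM in every fibroblast group. Their sum was 8346 to 8514 CPM in untreated Scrambled, 11048 to 11430 CPM with si1259 and 7754 to 8005 CPM with si1055. With IL-17 it was 8243 to 8367, 10288 to 10759 and 7814 to 8123 CPM in the same order. The summed lymphocyte markers, among them Cd3e, reached at most 0.37 CPM in any fibroblast library. The summed mural cell markers were 103 to 116 CPM in untreated Scrambled, 66.6 to 72.3 CPM with si1259 and 52.9 to 65.8 CPM with si1055, and the cardiomyocyte sum, in which 1 of 6 genes passed 1 CPM, was 90.6 to 98.6, 42.3 to 46.9 and 27.4 to 32.4 CPM. The macrophage sum was 55.9 to 60.0 CPM in untreated Scrambled and 73.9 to 77.4 CPM with si1055, the endothelial sum 49.5 to 54.9 and 42.4 to 46.7 CPM, and the Schwann cell sum 21.2 to 22.6 and 26.4 to 27.1 CPM. With IL-17 the mural sum was 154 to 159 CPM in Scrambled, 99.96 to 105 CPM with si1259 and 75.8 to 82.2 CPM with si1055. Scrambled CFs with TGF-β had a macrophage sum of 155 to 162 CPM, an endothelial sum of 94.3 to 95.5 CPM and a fibroblast sum of 14147 to 14794 CPM, against 8346 to 8514 CPM for fibroblast markers in untreated Scrambled. Their mural sum was 64.9 to 66.6 CPM and their cardiomyocyte sum 5.29 to 5.98 CPM, both below the untreated Scrambled values. The part of these shifts in the results below was not tested. In bulk RNA, fewer cells of a type and less RNA per cell cannot be told apart, and since no label names separate cultures, the p-values measure the spread between these libraries.

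The members differed widely in level. Per kilobase of annotated exon, Tnfrsf12a was the most abundant in untreated Scrambled CFs at 151 ± 4.63 CPM per kb (SD, n = 3), followed by Tnfrsf1a at 44.5 ± 1.40 and Tnfrsf1b at 27.5 ± 1.37. Tnfrsf11b at 12.8 and Tnfrsf10b at 12.6 CPM per kb overlapped in their libraries and were not separated. Fas stood at 7.99, Tnfsf9 at 5.34 and Tnfrsf21 at 0.968 CPM per kb. Ngfr at 0.239 and Tnfsf10 at 0.207 CPM per kb were lowest, and their ranges also overlapped. In HET hearts Tnfrsf12a was again highest per kb (36.6 ± 8.20, n = 4) and Tnfrsf1a next (14.7 ± 1.29), while Tnfrsf11b was listed at 0 in 3 of 4 libraries.

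**Figure D1:**
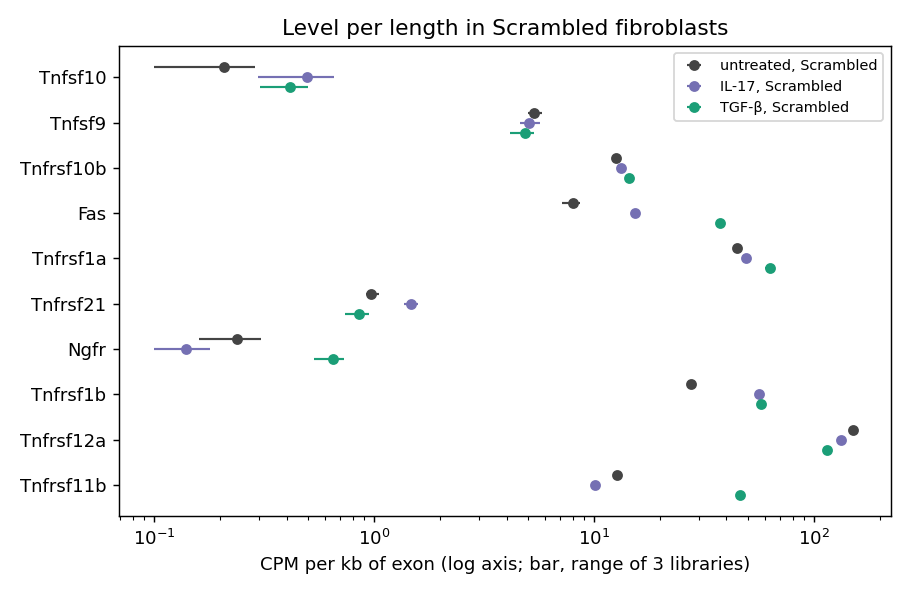
Level of each member per kilobase of exon in the Scrambled CFs (x axis, CPM per kb, log axis), with the mean as a point and the range of 3 libraries as a bar. Tnfrsf12a lies highest in all 3 conditions (115 to 151 CPM per kb), and Fas and Tnfrsf11b lie higher with TGF-β than in the other 2.

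Tnfsf10 lies on chromosome 3 from 27317028 to 27342427 on the plus strand (GRCm38, GENCODE vM21). In untreated CFs it measured 1.52, 0.527 and 1.23 CPM in the Scrambled libraries. With si1259 it measured 0.220, 0.107 and 0.144 CPM, and with si1055 0.0513, 0.0525 and 0.0519 CPM. Every knockdown library lay below every Scrambled library. Tnfsf10 fell with si1259 (log2 fold change -2.79, SE 0.44, edgeR adjusted p = 6.44e-05) and with si1055 (-4.37, SE 0.49, adjusted p = 9.83e-07), a comparison in libraries other than those that chose it. The si1055 libraries held 6 estimated counts each, about 1 read pair, and the si1259 libraries 25, 12 and 16, so all 3 si1055 and 2 of 3 si1259 libraries were under the floor of 18 and both fold changes rest on few reads. As read pairs summed over 3 libraries, 3 against 66 gave 4.74% of the Scrambled level (95% exact interval 0.959% to 14.6%, counting error only), and si1259 with 9 pairs gave 14.4% (6.44% to 29.6%). The difference between the siRNAs passed the test (-1.58, adjusted p = 0.0164), but not with the estimated counts divided by 6 (adjusted p = 0.13), in a fit of the 2 groups alone (0.122) or without si1259 replicate 1 (0.0799).

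With IL-17 the Scrambled libraries measured 3.47, 2.79 and 1.56 CPM of Tnfsf10, all above the untreated Scrambled libraries. The si1259 libraries measured 0.200, 0.356 and 0.162 CPM and the si1055 libraries 0.103, 0.276 and 0.192 CPM. The log2 fold change against Scrambled was -3.44 for si1259 and -3.76 for si1055, and 1.25 for IL-17 against untreated in Scrambled CFs. The si1259 libraries held 22, 39 and 18 estimated counts and the si1055 libraries 12, 32 and 22. The first si1055 library was under the floor of 18, so these fold changes also rest on few reads. These values chose the gene and carry no test.

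With TGF-β the knockdown groups overlapped the Scrambled group. Tnfsf10 measured 1.60, 2.65 and 2.28 CPM in Scrambled, 1.85, 1.92 and 3.18 CPM with si1259 and 2.43, 2.00 and 0.938 CPM with si1055. The log2 fold change was 0.11 with si1259 (95% interval -0.64 to 0.85, adjusted p = 0.887) and -0.27 with si1055 (-1.02 to 0.49, adjusted p = 0.642). The siRNA effect itself differed between TGF-β and untreated CFs, by 2.89 on the log2 scale for si1259 (SE 0.54, adjusted p = 0.000375) and by 4.08 for si1055 (SE 0.59, adjusted p = 1.04e-05). The stimulus and the table it was deposited in cannot be told apart. More IAMP transcript also remained after knockdown with TGF-β than in untreated CFs, and the part of this was not tested. In Scrambled CFs Tnfsf10 rose with TGF-β (log2 fold change 0.98, adjusted p = 0.0223), a call lost without untreated Scrambled replicate 2 (adjusted p = 0.122) or TGF-β Scrambled replicate 2 (0.0915) or 3 (0.055).

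**Figure D2:**
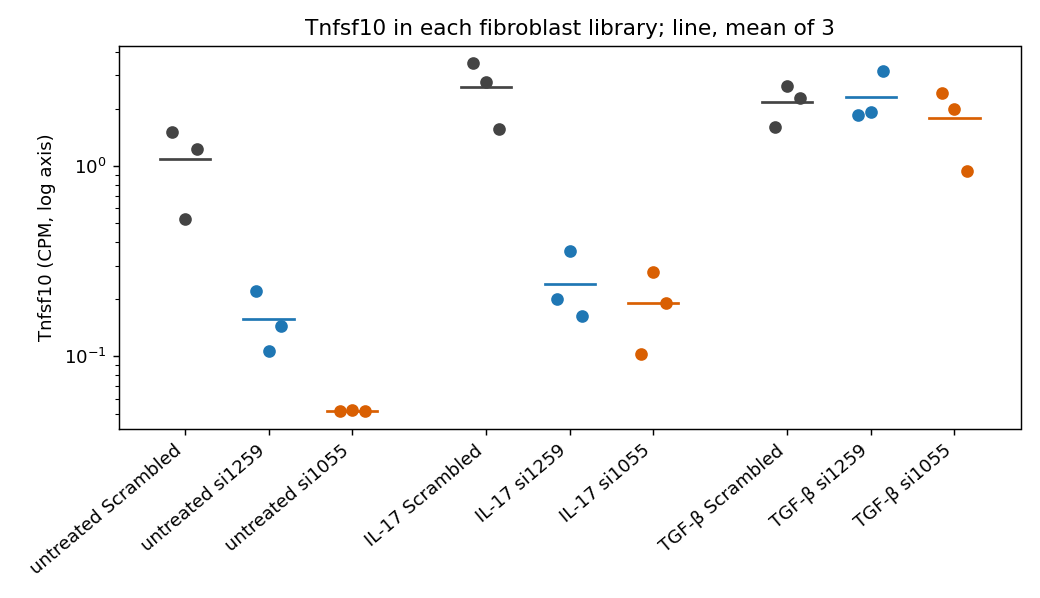
Tnfsf10 in each of the 27 CF libraries (y axis, CPM, log axis), by stimulus and siRNA, with a line at the mean of 3. The untreated and IL-17 knockdown libraries lie at 0.356 CPM or below and their Scrambled libraries at 0.527 CPM or above, while the TGF-β groups overlap.

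The genes whose log2 CPM followed Tnfsf10 most closely over the 27 CF libraries, among 13329 genes of at least 1 CPM, were N4bp1 (r = 0.97), Wasf3 (0.95), Pitpnm1 (0.95), Cx3cl1 (0.94) and Tut7 (0.94). The libraries share 9 groups and their stimuli, so this is a description. Cx3cl1, the chemokine fractalkine, averaged 77.5 CPM in untreated Scrambled CFs and 16.1 and 10.7 CPM with si1259 and si1055, against 132, 90.7 and 63.3 CPM with TGF-β.

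Over all 10 members, knockdown in untreated CFs moved Tnfsf10 past 2-fold and several others by less. With si1259, 5 of 10 members, Tnfsf10 included, passed an adjusted p of 0.05, where 39.9% of all genes tested did, and 1, Tnfsf10, also passed a 2-fold change, where 4.76% did. With si1055 the counts were 8 of 10 (49.3% of all genes) and again Tnfsf10 alone (10.7%). The median log2 fold change of the members was 0.02 and 0.14, against -0.02 and -0.02 over all genes. Tnfrsf1a, the main receptor for soluble TNF, rose from 115 CPM to 167 CPM with si1259 (log2 fold change 0.54, SE 0.034, adjusted p = 1.84e-09) and to 193 CPM with si1055 (0.74, SE 0.034, adjusted p = 1.2e-11). Fas rose by a like amount with each siRNA (0.46 and 0.47), from 16.5 CPM to 22.6 and 22.8 CPM. Tnfrsf10b fell with both, by 0.19 and 0.33 on the log2 scale. Tnfrsf1b, Tnfrsf21 and Tnfrsf11b rose with si1055 alone at the threshold (0.57, 0.42 and 0.37), and the siRNAs differed for all 3 (adjusted p = 3.28e-09, 0.000548 and 0.000328). Tnfrsf12a rose with si1259 (0.30, adjusted p = 1.69e-06) and fell with si1055 (by 0.10 on the log2 scale, adjusted p = 0.0247, with overlapping libraries). The fall of Tnfrsf12a was lost with no filter (0.058) and without si1055 replicates 1 or 2 or Scrambled replicates 1 or 3 (0.0623 to 0.114), and the rise of Tnfrsf21 without si1055 replicate 1 (0.103). Ngfr and Tnfsf9 passed with neither. Between the siRNAs, 7 of 10 members passed the adjusted p (45.5% of all genes) and 1 the fold as well (6.65%).

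With IL-17, where 9 members are counted, 6 passed the adjusted p with si1259 (42.3% of all genes) and 1 also a 1.5-fold change (13.5%). With si1055, 7 of 9 passed (50.6%) and 1 also the fold (21.7%). Tnfrsf1b measured 215, 219 and 213 CPM in Scrambled, 301, 293 and 286 CPM with si1259 and 440, 444 and 452 CPM with si1055. The 3 groups did not overlap. Tnfrsf1b rose with si1259 (log2 fold change 0.44, SE 0.026, adjusted p = 4.49e-10) and with si1055 (1.05, SE 0.027, adjusted p = 3.93e-15). Fas measured 32.2, 32.0 and 30.4 CPM in Scrambled, 54.3, 56.7 and 56.9 CPM with si1259 and 43.2, 47.6 and 50.2 CPM with si1055, with no overlap between groups. It rose by 0.83 with si1259 (SE 0.050, adjusted p = 6.05e-10) and by 0.58 with si1055 (SE 0.050, adjusted p = 2.59e-08), the latter just under 1.5-fold. Tnfrsf21 went in opposite directions, falling by 0.27 on the log2 scale with si1259 (adjusted p = 0.0367) and rising by 0.56 with si1055 (adjusted p = 8.72e-05). The fall was lost without si1259 replicate 3 or Scrambled replicates 1 or 2 (0.0614 to 0.158), and in a fit of the 2 groups alone (0.0655). Tnfrsf1a rose with both (0.33 and 0.56), Tnfrsf10b fell with both (by 0.18 and 0.40), Tnfrsf12a rose with si1259 (0.44), Tnfrsf11b rose with si1055 (0.55), and Tnfsf9 fell with si1055 (by 0.49). Ngfr did not pass with either (0.68, adjusted p = 0.0779, and 0.61, adjusted p = 0.0999), but did with both without Scrambled replicate 2 (0.0413 and 0.0486). Between the siRNAs 8 of 9 members passed the adjusted p (46.2%) and 2, Tnfrsf21 and Tnfrsf1b, the fold (15.7%).

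With TGF-β the counts of members passing the adjusted p were 3 of 10 with si1259 (23.1% of all genes) and 0 with the 1.5-fold change as well (4.36%), where 4 members had an unadjusted p under 0.05 and DESeq2 also called 0. With si1055 they were 7 of 10 (29.9%) and 1 (7.51%). Between the siRNAs they were 4 of 10 (24.0%) and 0 (3.96%), with 5 members under an unadjusted p of 0.05 and 0 called by DESeq2. Tnfrsf21 measured 3.03, 3.55 and 3.90 CPM in Scrambled, 4.22, 4.68 and 5.40 CPM with si1259 and 5.20, 5.19 and 5.61 CPM with si1055. It rose with both siRNAs (0.46, adjusted p = 0.0121, and 0.63, adjusted p = 0.000946), the second falling under the fold without Scrambled replicate 1 (0.54). The rise with si1259 was lost without si1259 replicate 3 (0.0764) or Scrambled replicate 1 (0.0623). Tnfrsf11b fell with si1259 (by 0.24 on the log2 scale) and rose with si1055 (0.21), and the siRNAs differed by 0.45 (adjusted p = 9.42e-08). Tnfrsf1a rose with both (0.19 and 0.14), Tnfsf9 and Tnfrsf10b fell with si1055 (by 0.47 and 0.14), and Ngfr rose with si1055 (0.52, adjusted p = 0.0353). Fas fell by 0.11 on the log2 scale with si1055 (adjusted p = 0.043), a call lost without each library but si1055 replicate 2 (0.0545 to 0.18) and with no filter (0.0702). The rise of Ngfr was lost without si1055 replicates 1 or 3 or Scrambled replicates 1 or 3 (0.0616 to 0.161) and in a fit of the 2 groups alone (0.0535), and the fall of Tnfrsf10b without si1055 replicate 1 or Scrambled replicates 1 or 3 (0.0532 to 0.0833).

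**Figure D3:**
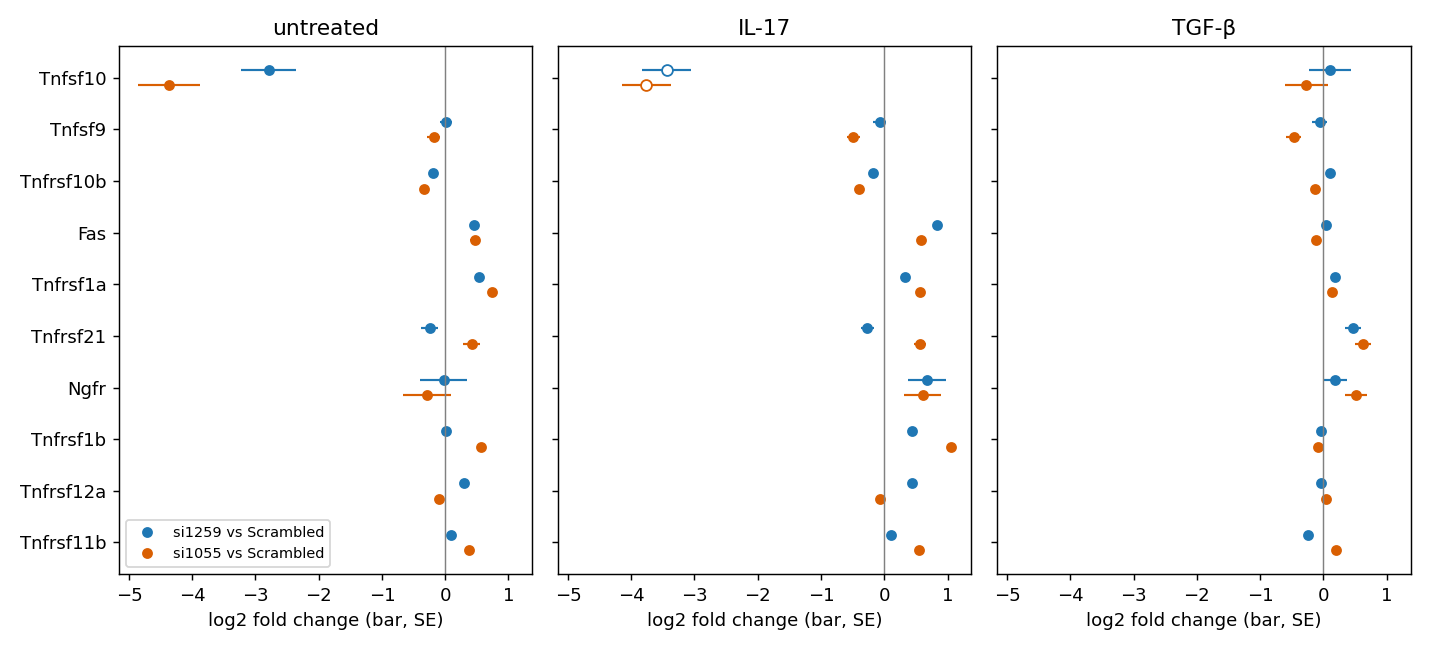
Log2 fold change of each member against Scrambled (x axis, bars are SE) in untreated, IL-17 and TGF-β CFs, in blue for si1259 and orange for si1055, with open points for values that carry no test. Tnfsf10 lies at -2.79 to -4.37 in untreated and IL-17 CFs and near 0 with TGF-β, and the other members lie between -0.49 and 1.05.

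The stimuli were compared in Scrambled CFs alone. Each stimulus was deposited in its own table, so the stimulus and the table cannot be told apart in any of these comparisons. With IL-17, 6 of 9 members passed the adjusted p (13.6% of all genes) and 1 also a 2-fold change (1.39%). With TGF-β, 8 of 10 passed (57.3%) and 4 also the fold (21.5%). Tnfrsf1b rose with each, from 111, 102 and 102 CPM to 215, 219 and 213 CPM with IL-17 (log2 fold change 1.03, SE 0.032, adjusted p = 2.49e-18) and to 213, 219 and 222 CPM with TGF-β (1.04, SE 0.036, adjusted p = 1.07e-17). Fas rose from 17.8, 14.7 and 16.9 CPM to 78.2, 75.8 and 76.8 CPM with TGF-β (2.21, SE 0.059, adjusted p = 6.19e-20), and by 0.93 with IL-17 (adjusted p = 1.37e-11). The TGF-β libraries lay above every IL-17 and untreated Scrambled library. Tnfrsf11b moved in opposite directions, rising from 34.9, 36.2 and 36.8 CPM to 125, 134 and 131 CPM with TGF-β (1.84, SE 0.043, adjusted p = 6.26e-21) and falling by 0.35 on the log2 scale with IL-17 (adjusted p = 1.2e-05). Ngfr rose with TGF-β from 0.864, 0.552 and 1.06 CPM to 2.34, 2.53 and 1.83 CPM (1.42, SE 0.30, adjusted p = 0.000312). Tnfrsf1a rose with both stimuli (0.14 with IL-17, 0.49 with TGF-β) and Tnfrsf12a fell with both (by 0.19 and 0.41). Tnfrsf21 rose with IL-17 (0.59, adjusted p = 0.000524) and Tnfrsf10b with TGF-β (0.18, adjusted p = 0.000899). Tnfsf9 passed with neither.

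**Figure D4:**
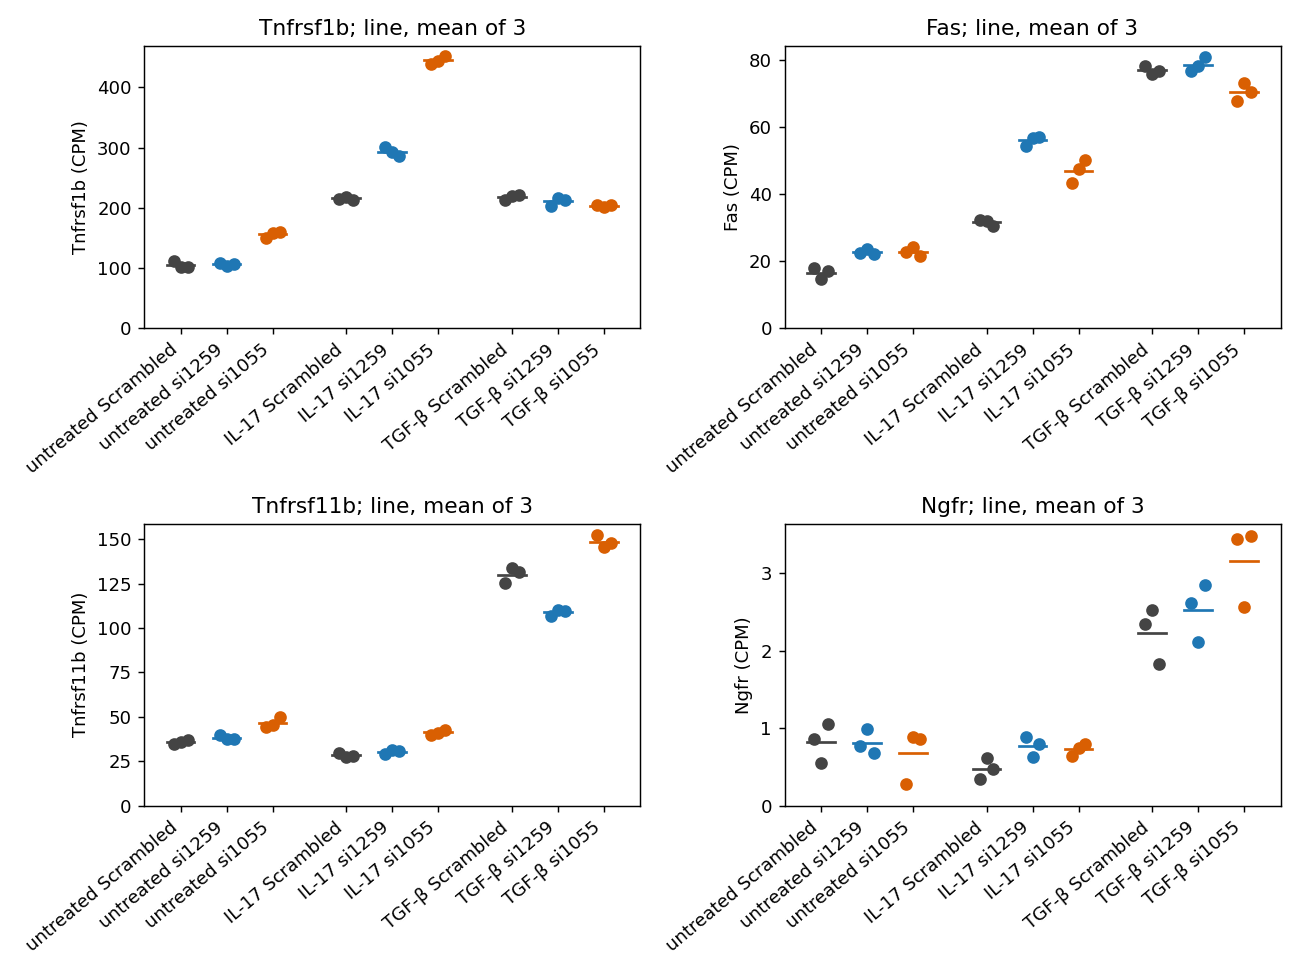
Tnfrsf1b, Fas, Tnfrsf11b and Ngfr in each CF library (y axis, CPM from 0) by stimulus and siRNA, with a line at the mean of 3. Fas, Tnfrsf11b and Ngfr are highest in the TGF-β libraries, and Tnfrsf1b is highest with IL-17 and si1055 (440 to 452 CPM).

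Whether knockdown acted differently with a stimulus was tested as the difference of the siRNA effects, where the stimulus and the table cannot be told apart. For IL-17, 3 of 9 members passed with si1259 (2.13% of all genes) and 0 with a 2-fold difference as well (0.189%), and 1 of 9 with si1055 (1.89%) and 0 with the fold (0.165%). In each, 4 members had an unadjusted p under 0.05 and DESeq2 called 0 with the fold. The si1055 difference for Tnfrsf1a (-0.17, adjusted p = 0.068) passed with RLE scaling (0.0465), a minimum of 10 counts (0.0382), estimated counts divided by 6 (0.0381) and DESeq2 (0.0103). The si1259 difference for Tnfrsf1a was -0.21 (adjusted p = 0.0139). The effect on Tnfrsf1b was larger with IL-17 for both siRNAs, by 0.43 (SE 0.046, adjusted p = 1.34e-06) and 0.49 (SE 0.045, adjusted p = 7.48e-08). For TGF-β, 7 of 10 members passed with si1259 (19.6%) and 1, Tnfsf10, with the fold (2.36%), and 7 of 10 with si1055 (30.2%) and 1, again Tnfsf10, with the fold (5.09%). The si1259 effect with TGF-β minus that in untreated CFs was -0.42 for Fas and -0.36 for Tnfrsf1a on the log2 scale. The same difference for si1055 was -0.60 for Fas, whose effect was 0.47 untreated and -0.11 with TGF-β, and -0.62 for Tnfrsf1a, whose effect was 0.74 and 0.14. For Tnfrsf1b the si1055 effect was 0.57 untreated and -0.083 with TGF-β, where it did not pass the test by itself, and the difference was -0.67 (adjusted p = 2.71e-10).

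Other genes of the family and its pathways are given from lists of general knowledge, and called means past the adjusted p and the fold of that table. In either direction, 4.76% and 10.7% of all genes were called with si1259 and si1055 in untreated CFs, 13.5% and 21.7% with IL-17, and 4.36% and 7.51% with TGF-β. Of 16 other TNF ligands 10 were tested in untreated CFs, where 2 were called higher and 1 lower with si1259 (4.76% of all genes) and 3 and 1 with si1055 (10.7%). Tnfsf18, the GITR ligand, rose from 33.0 CPM to 101 and 93.3 CPM, and with IL-17 from 21.2 to 82.4 and 67.5 CPM. With IL-17, 4 ligands were called higher and 1 lower with si1259, and 3 and 2 with si1055. Tnfsf15 (TL1A) rose from 38.4 CPM to 72.6 and 175 CPM, and Tnfsf11 (RANKL) fell from 2.48 to 0.633 and 1.08 CPM. Of 20 other TNF receptors 17 were tested, with 1 higher and 0 lower for si1259 and 2 higher and 3 lower for si1055 in untreated CFs. Tnfrsf26 rose in all 3 conditions with both siRNAs, from 86.8 CPM to 197 and 281 CPM in untreated CFs. With IL-17, 3 receptors were called higher and 2 lower with si1259, and 5 and 3 with si1055. Eda2r, a receptor for ectodysplasin, fell from 142 CPM to 66.5 and 26.8 CPM. Of 24 death receptor and TNF signalling genes, 10 passed the adjusted p higher and 10 lower with si1259 in untreated CFs (39.9% of all genes), and 9 and 9 with si1055 (49.3%). With IL-17, Tnfaip3, which encodes the NF-κB inhibitor A20, rose from 29.2 to 50.9 and 65.0 CPM. Among 8 neurotrophins and receptors 7 were tested, of which 1, Ntrk3, was called in untreated CFs, higher with si1055.

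Tnfsf10 is itself an interferon-inducible gene. Of 12 other interferon-induced genes, 1 passed the adjusted p with si1259 (39.9% of all genes) and 3 with si1055 (49.3%) in untreated CFs. Both are smaller shares than over all genes. Those that passed were lower, and none of those was past 2-fold in edgeR. Rsad2 was past 2-fold with si1259 (log2 fold change -1.41, SE 0.51) and si1055 (-1.36, SE 0.50), and Mx1 with si1055 (-1.87, SE 0.93). With these wide errors they did not pass (edgeR adjusted p = 0.0731, 0.0679 and 0.148), so the shares do not measure the size of the change. The list medians were -0.24 and -0.61, against -0.02 and -0.02 over all genes. With IL-17, 8 of 12 were called lower with si1259 (13.5% of all genes were called in either direction) and 11 with si1055 (21.7%), with medians of -1.39 and -1.25 against -0.0026 and -0.017 over all genes. Mx1 fell from 4.66 CPM to 0.696 and 0.730 CPM, and Rsad2 from 77.5 to 14.0 and 22.2 CPM. These comparisons share the Scrambled libraries of each table. With TGF-β, 6 of 12 passed the adjusted p higher with si1259 (23.1% of all genes) and 6 with si1055 (29.9%), and 0 lower. Of these, 2 were called higher with si1259 (4.36%) and 1 with si1055 (7.51%). The list medians were 0.36 and 0.37, against 0.0003 and 0.013 over all genes. In Scrambled CFs with TGF-β against untreated, all 12 were called higher (median 3.22, with 21.5% of all genes called). There the stimulus and the table it was deposited in cannot be told apart. Of 9 p53 targets in untreated CFs, 7 passed the adjusted p lower and 1 higher with si1259 (39.9% of all genes). The counts with si1055 were also 7 and 1 (49.3%). Their medians were -0.39 and -0.51, against -0.02 and -0.02 over all genes. Called lower were 1 with si1259 (4.76% of all genes) and 2 with si1055 (10.7%). Trp53inp1 was among them with both and fell from 180 to 47.2 and 50.8 CPM. With IL-17, 7 p53 targets passed lower with each siRNA (42.3% and 50.6%) and 1 higher with si1259. Of these, 3 were called lower with each (13.5% and 21.7%). With TGF-β, 1 ligand and 1 receptor of these lists were called higher with si1259, and none of the signalling genes and p53 targets in edgeR. With si1055, 2 ligands and 1 receptor were called higher and 1 receptor lower.

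In uninjured hearts no member passed the test between KO and HET. Of 16675 genes tested in edgeR, 0 passed the adjusted p (0% of all genes), with or without the fold, and 601 had an unadjusted p under 0.05, of which 1 was a member. DESeq2 also called 0 members. Fas measured 12.2, 15.1, 14.9 and 13.8 CPM in HET and 14.3, 16.0, 17.0 and 17.1 CPM in KO, with overlapping groups (log2 fold change 0.20, 95% interval 0.01 to 0.39, adjusted p = 1). Tnfsf10 measured 5.10 ± 0.718 CPM in HET and 5.03 ± 0.445 CPM in KO (SD, n = 4 each), a log2 difference of -0.02 (interval -0.29 to 0.24). Tnfrsf1a, Tnfrsf21 and Tnfrsf1b had intervals within -0.18 and 0.21. Tnfrsf10b was at 7 counts in 1 KO heart and 37 to 59 in the other hearts (interval -1.45 to 0.41), and Tnfsf9 was at 0 in 1 KO heart. Ngfr, Tnfsf9 and Tnfrsf12a also had intervals wider than 1 on the log2 scale, and Tnfrsf11b did not pass the filter on low counts, with 0, 0, 0 and 6 counts in HET and 0, 0, 8 and 6 in KO.

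**Figure D5:**
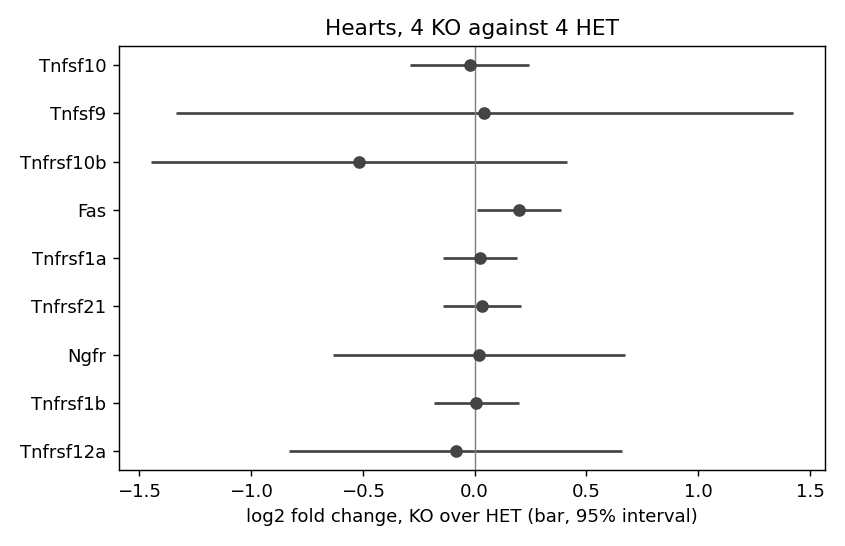
Log2 fold change of KO over HET hearts for the 9 members tested (x axis, bars are 95% intervals, n = 4 each). All intervals span 0 except that of Fas (0.01 to 0.39), whose adjusted p was 1.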

How the data were processed

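RNA-Seq of 27 CF libraries (9 groups of 3) and 8 hearts (4 HET, 4 KO) was analysed from 4 deposited tables, and every library was used. Per the labels, the authors used cutadapt, HISAT2, StringTie and DESeq2 with GRCm38. The CF values deposited by the authors are estimated counts derived from coverage, and the deposited heart values are raw counts, both whole numbers without normalization for 55487 genes. The annotation release and strand setting are not given in the sources used here. Without strand, reads of Tnfsf9 and of the antisense gene Gm11110 cannot be told apart, and Fas overlaps Gm27818.

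Each table went into 1 fit in edgeR 4.0.16 (R 4.3.3) with TMM scaling, filterByExpr and a robust quasi-likelihood test, adjusted by Benjamini-Hochberg over all genes tested, in 16 comparisons. Stimuli and differences of siRNA effects used both tables in 1 fit. The fold thresholds were 2-fold, and 1.5-fold within the IL-17 and TGF-β tables. SE is the absolute log2 fold change over the square root of F. CPM used TMM over all CF libraries, or over the hearts. The smallest level read was 3 read pairs or counts, and intervals of ratios cover counting error only. The pipeline was tested on simulated counts that lacked the steps of about 6 seen in the CF values. No change under 2-fold was planted in them, so smaller changes were not covered. Alternatives were DESeq2 1.42.0, RLE scaling, no filter, a minimum of 10 counts per library, exchanged fold thresholds, division of estimated counts by 6, a fit of only the groups compared, a replicate block, and leaving out each library. Same-numbered libraries did not deviate together (r from -0.18 to 0.10 within a table). Named genes were all members, up to 4 genes per list and table called with both siRNAs at 1 CPM or more, otherwise up to 2 called with 1 siRNA, and the 5 genes most like Tnfsf10 (log2 of CPM plus 0.1), of which examples are given. Some genes of the lists are not reported here. The lists were other TNF ligands, other TNF receptors, death receptor and TNF signalling, neurotrophins, interferon-induced genes, p53 targets and markers of 7 cell types. The members and lists were chosen with earlier results of these data known.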

Additional observations from a re-analysis of the deposited data

Results flagged for a closer look

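In HET hearts 1 library stood apart from the other 3 for Tnfrsf11b, at 0.239 CPM against 0. About 1 in 20 groups of continuous values is marked by chance. With 3 libraries at 0, however, any value above 0 in the other is marked, so no conclusion is drawn from it.

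Several siRNA effects differed between a stimulus and untreated CFs by the test of the difference (edgeR, adjusted p of at most 0.05), given here as the log2 effect with the stimulus minus that without. With IL-17 and si1259 the differences were 0.37 for Fas, -0.21 for Tnfrsf1a and 0.43 for Tnfrsf1b, and with si1055 0.49 for Tnfrsf1b. With TGF-β and si1259 they were 2.89 for Tnfsf10, 0.30 for Tnfrsf10b, -0.42 for Fas, -0.36 for Tnfrsf1a, 0.70 for Tnfrsf21, -0.34 for Tnfrsf12a and -0.34 for Tnfrsf11b. With TGF-β and si1055 they were 4.08 for Tnfsf10, 0.17 for Tnfrsf10b, -0.60 for Fas, -0.62 for Tnfrsf1a, -0.67 for Tnfrsf1b, 0.13 for Tnfrsf12a and -0.18 for Tnfrsf11b. Leaving out 1 library ended the call in 6 of 12 fits for Fas and 1 of 12 for Tnfrsf1a with IL-17 and si1259, and in 4 for Tnfrsf10b, 6 for Tnfrsf11b and 5 for Tnfrsf12a with TGF-β and si1055 (adjusted p 0.0511 to 0.159). The stimulus and the table cannot be told apart in these values. More IAMP transcript remained after knockdown with TGF-β than in untreated CFs, and the part of this was not tested.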

How the results depend on the processing

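The number of members called was compared under each alternative. The other fold threshold gave 2 for untreated si1055 and for si1055 against si1259, 0 for IL-17 si1259 and for its siRNAs against each other, 0 for TGF-β si1055, 3 for IL-17 against untreated, and 2 and 4 for the si1259 and si1055 effects with TGF-β minus untreated. At least 10 counts in every library gave 0 for the 3 untreated comparisons and for both of these effects, since it removes Tnfsf10. Untreated si1055 against si1259 also gave 0 with estimated counts divided by 6 and with the 2 groups alone. For IL-17 si1055, RLE, no filter and DESeq2 each gave 2, where Fas crosses 1.5-fold. Leaving out 1 library at a time, the count ran from 1 to 4 for IL-17 si1055 (3 without si1055 replicate 1, 2 and 4 without Scrambled replicates 1 and 2), from 1 to 2 for IL-17 si1259 (2 without Scrambled replicate 2), from 0 to 2 for TGF-β si1055 (0 without Scrambled replicate 1, 2 without Scrambled replicate 2 or si1055 replicate 2), and from 0 to 1 for untreated si1055 against si1259 (0 without si1259 replicate 1). The sign of small differences also turned when a library was left out, and the cause was not tested. The ranges of log2 fold changes follow. In untreated si1259, Ngfr -0.24 to 0.20, Tnfrsf1b -0.0018 to 0.058, Tnfsf9 -0.031 to 0.078. In untreated si1055, Ngfr -0.53 to 0.077. In untreated si1055 against si1259, Fas -0.028 to 0.049, Ngfr -0.51 to 0.10. In IL-17 si1259, Tnfsf9 -0.14 to 0.017. In IL-17 si1055 against si1259, Ngfr -0.19 to 0.038, Tnfsf10 -0.69 to 0.076. In TGF-β si1259, Tnfsf10 -0.19 to 0.28, Tnfsf9 -0.15 to 0.025. In TGF-β si1055, Tnfsf10 -0.55 to 0.039. In the si1259 effect with IL-17 minus untreated, Tnfrsf10b -0.022 to 0.051, Tnfrsf11b -0.015 to 0.047, Tnfrsf21 -0.083 to 0.060. In the si1259 effect with TGF-β minus untreated, Ngfr -0.0018 to 0.43. In hearts, Ngfr -0.16 to 0.28, Tnfrsf12a -0.39 to 0.092, Tnfrsf1a -0.029 to 0.074, Tnfrsf1b -0.025 to 0.069, Tnfrsf21 -0.017 to 0.083, Tnfsf10 -0.12 to 0.038, Tnfsf9 -0.32 to 0.45. The replicate number as a block changed the side of the adjusted p for 2 of 150 member results, Fas (-0.11, adjusted p = 0.0507) and Ngfr (0.50, adjusted p = 0.0563) with TGF-β and si1055, and the same-numbered libraries did not deviate together. No paired analysis was possible for hearts because their columns carry no replicate number. A level under 3 read pairs limits how far below Scrambled Tnfsf10 can be placed. In untreated CFs this holds with si1055 and in 2 of 3 libraries with si1259. With IL-17 it holds for si1055 replicate 1.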
